A study of Mus musculus with 10 samples.

Results

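Amino acids enter granulocyte-macrophage progenitors (GMPs) through carrier proteins of the cell surface, and 10 genes for such carriers were followed here in GMPs that had recently lost *Mpc2*, a subunit of the mitochondrial pyruvate carrier. The 10 are *Slc1a4*, *Slc1a5*, *Slc3a2*, *Slc7a1*, *Slc7a5*, *Slc7a6*, *Slc7a7*, *Slc7a8*, *Slc38a1*, and *Slc38a2*. They were chosen by family and function, with earlier results of these data known, from the 51717 genes to which the transcripts were summed. All 10 were among the 12381 genes with enough reads to test. The comparison asked whether mRNAs for amino acid uptake were higher or lower once mitochondrial pyruvate import had been deleted, with 5 WT samples (*ROSA26 CreER*+/-) set against 5 recent KO samples (*Mpc2* fl/fl; *ROSA26 CreER*+/-).

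The samples are labelled as male C57Bl6/N, and every one came from the CD45.2+ donor side of irradiated CD45.1 bone marrow recipients. Both groups carried *CreER*, a tamoxifen-activated recombinase expressed from the ubiquitous *ROSA26* locus, and both were taken down once 2 wk of tamoxifen chow were complete. The controls therefore share the recombinase, the drug, and the transplant, and differ in the floxed alleles. Deletion was not limited to GMPs among the CD45.2+ donor cells, since *ROSA26* is active in all blood lineages. Neither the labels nor the authors' methods for these samples say whether WT CD45.1 marrow was transplanted alongside. A WT sample held GMPs of 1 mouse. A recent KO sample pooled 2 mice, so that 10 mice stood behind the 5 recent KO samples and each value there is already an average over its pair. The labels do not give the age of the mice.

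The libraries held 14033776 to 19745405 estimated reads each, with overlapping ranges in the groups, and 3 reads corresponded to 0.152 to 0.214 CPM, reads scaled to library size. *Mpc2* itself lay between 60.9 and 116.7 normalized CPM in the WT samples and between 17.1 and 43.9 CPM in the recent KO samples, without overlap (log2 fold change −1.46, SE 0.24, adjusted p = 0.0156, edgeR). Reads of *Mpc2* were thus still found in all recent KO samples. By the authors' account exon 3 of *Mpc2* is floxed, whereas these levels sum reads over the whole gene. They therefore do not show how much intact transcript remained. All 13 GMP markers passed the filter on low counts, led by *Elane* (neutrophil elastase), and their summed level was 65120 to 85160 TPM, a level scaled to transcript length in WT and 38580 to 70230 TPM in recent KO samples. Recent KO replicates 3, 4, and 5 stood apart from the other samples, with 10 erythroid markers summing to 549.6, 383.3, and 333.2 TPM against 51.4 to 126.8 TPM in the other 7 samples. The same 3 samples were lowest in the sum of 9 monocyte and dendritic cell markers, at 1135, 2643, and 2790 TPM against 3767 to 5398 TPM elsewhere. The sum of 12 macrophage markers was higher in every recent KO sample (27.3 to 49.6 TPM) than in any WT sample (10.97 to 21.7 TPM), as was that of 6 megakaryocyte markers (25.9 to 43.4 against 10.7 to 19.7 TPM). No defining marker of these lists was at 0 in all samples. In RNA from whole sorted populations, fewer cells of a type and less RNA per cell cannot be told apart.

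The 10 carriers divide by how they work. The proteins of *Slc7a5*, *Slc7a6*, *Slc7a7*, and *Slc7a8* are light chains that carry the amino acids, and each is held at the surface by the single-pass heavy chain encoded by *Slc3a2* (CD98), to which it is joined by a disulfide bond. *Slc7a1* encodes a cationic amino acid carrier that needs no heavy chain. *Slc1a5*, *Slc38a1*, and *Slc38a2* encode sodium-coupled carriers of glutamine and other small neutral amino acids, and *Slc1a4* a related exchanger of alanine, serine, and cysteine. Dividing blood progenitors use these routes to take in leucine, which activates the growth kinase complex mTORC1, and glutamine, which can feed the TCA cycle.

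None of the 10 mRNAs passed the test after *Mpc2* deletion. At an adjusted p of 0.05 (edgeR quasi-likelihood test, adjusted over all genes tested), 0 of 10 members were called, where 41 of all 12381 genes (0.331%) were. At an unadjusted p of 0.05, 2 members (*Slc7a8* and *Slc7a5*) passed, where 10.2% of all genes did. Both had higher means in recent KO GMPs, as had 4.89% of all genes at this p. DESeq2 called 0 members as well, as did limma, in which *Slc1a4* fell below the TPM filter. The WT and recent KO ranges overlapped for all 10 members, whereas 2.43% of all genes had ranges that did not overlap. The fitted log2 fold change was above 0 for 8 members and below 0 for 2, against 49.6% of all genes above 0. Its median was 0.04, beside −0.0018 over all genes tested, and its median size regardless of sign was 0.10, the same as the 0.10 over all genes.

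**Figure D1:**
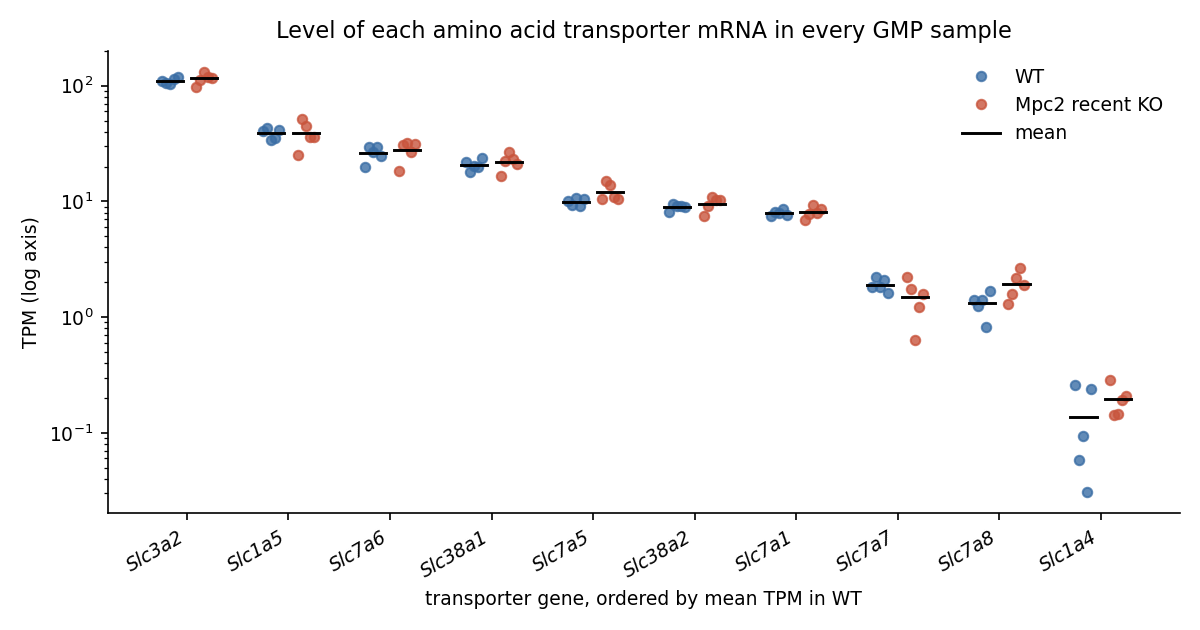
Level of each of the 10 carriers in every sample, in TPM on a log axis, ordered by the WT mean; blue points are the 5 WT samples, red points the 5 recent KO samples, and black bars the group means. *Slc3a2* sat at 104 to 120 TPM in WT samples and *Slc1a4* below 0.3 TPM in all 10 samples, and the points of the groups overlapped for every gene.

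In WT GMPs the level per transcript length, in TPM, spanned from over 100 to under 1 among the 10 members. The heavy chain *Slc3a2* stood alone at 110.8 ± 6.32 TPM (SD, n = 5), rank 1154 of the 12381 tested genes, and made up 48.8% of the summed TPM of the 10 members. *Slc1a5* followed at 39.0 ± 4.11 TPM, *Slc7a6* at 26.1 ± 3.98 TPM, and *Slc38a1* at 20.8 ± 2.26 TPM. *Slc7a5* (9.90 ± 0.656 TPM), *Slc38a2* (8.99 ± 0.522 TPM), and *Slc7a1* (7.95 ± 0.424 TPM) came next. *Slc7a7* (1.91 ± 0.247 TPM), *Slc7a8* (1.31 ± 0.320 TPM), and *Slc1a4* (0.137 ± 0.106 TPM) were the lowest. The largest step between neighbors, 9.61 times, lay between *Slc7a8* and *Slc1a4*, which was at rank 12235.

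For several neighbors in this order the WT ranges overlapped. This was so between *Slc7a6* and *Slc38a1*, between *Slc7a5* and *Slc38a2*, between *Slc38a2* and *Slc7a1*, and between *Slc7a7* and *Slc7a8*. Compared within each sample, the first of each pair was the higher one in 4, 4, 5, and 4 of the 5 WT samples, so that *Slc38a2* lay above *Slc7a1* throughout (also in all 5 recent KO samples) and the other 3 pairs were not ordered the same way in every sample. With 5 samples an exact two-sided sign-flip test cannot go below p = 0.0625, so no step in the order could pass 0.05. In the recent KO group the order was the same except that *Slc7a8* and *Slc7a7* changed places. All 10 members together summed to 226.9 ± 9.22 TPM in WT and 237.5 ± 31.97 TPM in recent KO GMPs.

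The third place of *Slc7a6* rested on a short, partial transcript model. *Slc7a6-202*, annotated as incomplete and 766 bases long, took 53.3% of the TPM of *Slc7a6* in WT samples (range 35.3% to 66.7%), while the full-length *Slc7a6-201* of 3750 bases took 26.8%. Likewise the incomplete *Slc7a1-202* (1792 bases) took 76.8% of the TPM of *Slc7a1*, and the complete *Slc7a1-201* (7179 bases) 16.9%. The same number of reads yields a higher TPM on a short model than on a long one. When each gene's normalized CPM was instead divided by the length of its longest complete coding transcript, a measure chosen after seeing the data, *Slc38a1* was at 14.0 ± 1.16 and *Slc7a6* at 13.7 ± 1.70 CPM per kilobase. On that scale *Slc7a5* (11.99 ± 0.960) and *Slc38a2* (11.7 ± 1.23) came close behind, and the WT range of each of these 4 overlapped that of the next, whereas *Slc7a1* fell to 3.57 ± 0.337. The longest complete transcript can itself be a minor one. For *Slc38a1* it was *Slc38a1-201* (7266 bases, 12.6% of its WT TPM), while the complete *Slc38a1-203* (3183 bases) took 71.0%. For *Slc3a2* it was *Slc3a2-202* (2813 bases, 3.24%), while *Slc3a2-201* (1819 bases) took 59.8%. A longer divisor gives a lower level, so the closeness of *Slc38a1* to *Slc7a6* depends on that choice. The top of the order, *Slc3a2* at 66.2 ± 2.53 and *Slc1a5* at 38.0 ± 2.70 CPM per kilobase, and its low end were the same on both scales.

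The heavy chain *Slc3a2* (chr19:8706882-8723369, minus strand, GRCm38) differed little between the groups. Its level was 176.9, 182.5, 185.7, 195.3, and 190.6 CPM in WT replicates 1 to 5 and 173.7, 177.9, 210.4, 194.3, and 182.9 CPM in recent KO replicates 1 to 5. Recent KO replicates 1 and 3 were the lowest and the highest of all 10 samples, and the other recent KO samples lay within the WT range. The fitted fold was 1.01, with a 95% confidence interval of 0.921 to 1.11 (log2 fold change 0.01, SE 0.06, adjusted p = 0.965). A *Slc3a2* level in recent KO GMPs below 0.921 or above 1.11 times that of WT thus lies outside the interval. Its main transcript, *Slc3a2-201*, took 59.8% of its TPM in WT and 57.7% in recent KO samples, followed by *Slc3a2-207* (17.9% and 23.6%) and an intron-retaining transcript of 812 bases (17.6% and 14.2%). None of these transcripts passed the test.

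Of the light chains, *Slc7a8* differed most. It encodes LAT2, an exchanger of large and small neutral amino acids, and lies at chr14:54722209-54781946 on the minus strand. WT replicates 1 to 5 had 6.46, 6.27, 7.07, 4.35, and 7.96 CPM, and recent KO replicates 1 to 5 had 6.61, 6.92, 9.73, 11.7, and 8.87 CPM. Recent KO replicates 3, 4, and 5 were above every WT sample, and replicates 1 and 2 lay inside the WT range. The group means were 6.42 ± 1.33 and 8.76 ± 2.09 CPM, a fold of 1.36 with an interval of 1.04 to 1.79, from 56 to 199 reads per sample. This had an unadjusted p of 0.0287 and an adjusted p of 0.421, and the exact two-sided permutation test gave p = 0.0635. The 3 recent KO samples high in *Slc7a8* were the same 3 that were high in erythroid markers and low in monocyte and dendritic cell markers. Since these samples were also the highest in *Slc7a8*, leaving them out had to lower its log2 fold change, which was then 0.06 instead of 0.45. The part of erythroid or monocytic RNA in the difference of *Slc7a8* was not tested.

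**Figure D2:**
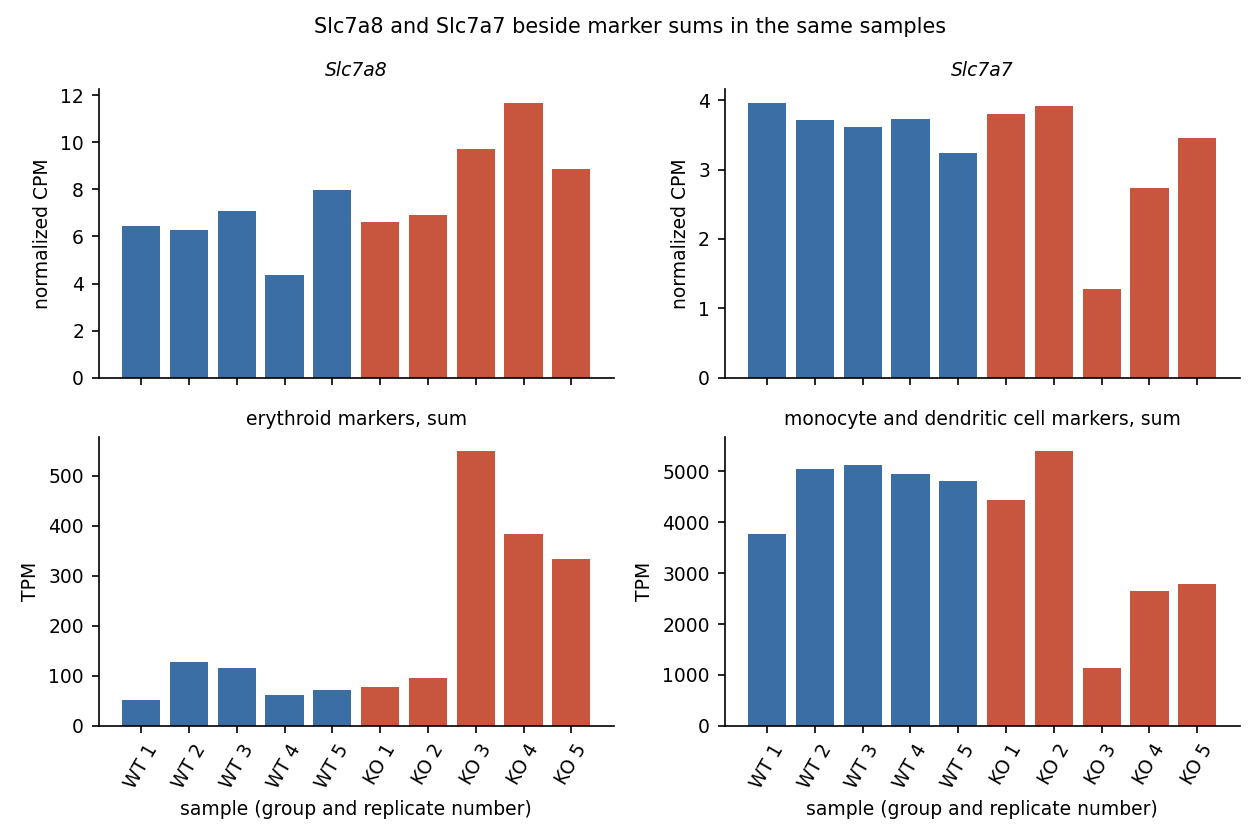
*Slc7a8* and *Slc7a7* in normalized CPM (upper panels) above the summed TPM of 10 erythroid markers and of 9 monocyte and dendritic cell markers (lower panels), one bar per sample, with WT in blue and recent KO in red. Recent KO replicates 3 to 5 were highest in *Slc7a8* and in the erythroid sum, and recent KO replicate 3 was lowest in *Slc7a7* (1.27 CPM) and in the monocyte and dendritic cell sum (1135 TPM). Recent KO replicates 3 to 5 were also the lowest in the monocyte and dendritic cell sum.

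*Slc7a5* (chr8:121881150-121907694, minus strand) encodes LAT1, the carrier of leucine and other large neutral amino acids in dividing cells. Its level was 40.1, 39.4, 47.9, 41.8, and 41.6 CPM in WT replicates 1 to 5 and 46.4, 58.7, 55.2, 42.9, and 41.7 CPM in recent KO replicates 1 to 5. Recent KO replicates 2 and 3 exceeded all WT samples, and the other 3 lay within the WT range. The fold was 1.16, with an interval of 1.00 to 1.35, an unadjusted p of 0.0499, an adjusted p of 0.487, and an exact permutation p of 0.111. The log2 fold change of *Slc7a5* was 0.31 without recent KO replicates 3 to 5 and 0.22 with them. Nearly all of its TPM came from a single transcript, *Slc7a5-201* (98.2% to 100% in WT samples).

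*Slc7a6* (chr8:106168857-106198706, plus strand), a light chain that exchanges cationic for neutral amino acids, was at 51.3 ± 6.39 CPM in WT samples and 55.01 ± 8.23 CPM in recent KO samples. WT samples ran from 43.4 to 58.4 CPM and recent KO samples from 41.5 to 62.9 CPM, so that the recent KO range enclosed that of WT. The fold was 1.07, with an interval of 0.908 to 1.27 (adjusted p = 0.831).

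*Slc7a7* (chr14:54369442-54417780, minus strand), the other light chain of this exchange type, was one of the 2 members with a lower mean in recent KO GMPs. WT replicates 1 to 5 had 3.97, 3.72, 3.62, 3.73, and 3.23 CPM, a narrow range. Recent KO replicates 1 and 2 matched it at 3.797 and 3.92 CPM, replicate 5 had 3.45 CPM, and replicates 3 and 4 had 1.27 and 2.74 CPM. The fold was 0.824, with an interval of 0.566 to 1.20 (adjusted p = 0.784). The lowest sample, recent KO replicate 3, was also the lowest in monocyte and dendritic cell markers and the highest in erythroid markers. Leaving it out brought the log2 fold change from −0.28 to −0.07, against −0.25 to −0.39 when any other sample was left out. Recent KO replicates 3 to 5 were the lowest of their group in *Slc7a7*, so leaving them out had to raise its log2 fold change, which was then 0.07. The part of monocytic or erythroid RNA in the difference of *Slc7a7* was not tested. *Slc7a7* rested on 26 to 81 reads per sample, and its exons share 232 bases with those of *Oxa1l* on the opposite strand, a gene with a mean of 950 reads in WT samples. The library kit does not mark strand, so reads from the shared stretch cannot be told apart by strand, and the level of *Slc7a7* is uncertain.

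*Slc7a1* (chr5:148327410-148399904, minus strand), the arginine and lysine carrier, was at 25.6 ± 2.42 CPM in WT samples and 26.5 ± 1.63 CPM in recent KO samples. WT replicate 1 was the lowest sample at 21.8 CPM, and the other 9 lay between 24.7 and 28.4 CPM. The fold was 1.03, with an interval of 0.916 to 1.17 (adjusted p = 0.891).

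**Figure D3:**
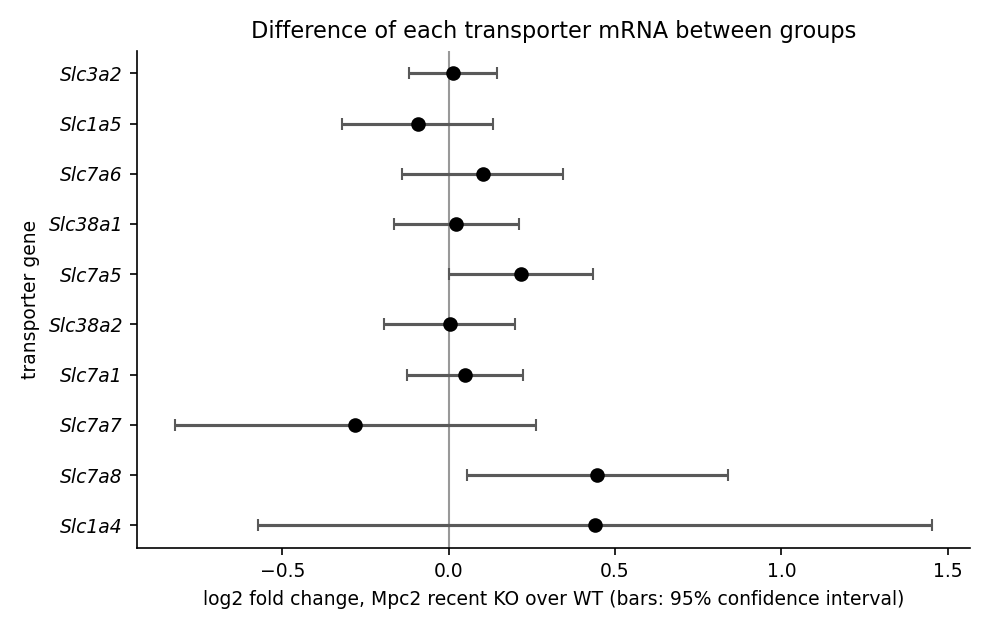
Log2 fold change of each carrier in recent KO over WT GMPs with its 95% confidence interval, in the order of the WT levels; the vertical line marks no difference. The interval of *Slc3a2* ran from −0.12 to 0.14, whereas that of *Slc1a4*, read by at most 24 reads per sample, ran from −0.57 to 1.45.

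None of the glutamine carriers passed the test, and their means differed little between the groups. *Slc1a5* (chr7:16781340-16798274, plus strand), which encodes ASCT2, was at 104.4, 116.7, 98.1, 99.1, and 106.9 CPM in WT replicates 1 to 5. It was at 76.8, 123.4, 106.1, 97.8, and 88.7 CPM in recent KO replicates 1 to 5, which included both the lowest and the highest sample. The fold was 0.938, with an interval of 0.802 to 1.10 (adjusted p = 0.839). *Slc38a1* (chr15:96571418-96642913, minus strand) was at 102 ± 8.44 CPM in WT samples and 104 ± 12.9 CPM in recent KO samples, a fold of 1.02 with an interval of 0.892 to 1.16. *Slc38a2* (chr15:96687392-96699730, minus strand), which lies nearby and encodes a carrier known to be induced by amino acid shortage, was at 54.4 ± 5.75 and 54.4 ± 5.84 CPM. Its fold was 1.00, with an interval of 0.873 to 1.15 (adjusted p = 0.996).

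Summed, *Slc1a5*, *Slc38a1*, and *Slc38a2* made up 68.7 ± 4.64 TPM in WT and 70.4 ± 13.8 TPM in recent KO GMPs. Recent KO replicate 1, at 49.4 TPM, was below all WT samples (63.1 to 74.2 TPM), and the highest recent KO sample reached 83.3 TPM. Their proportions were alike in the groups. *Slc1a5* took 56.6% ± 3.01 of the sum in WT and 54.7% ± 4.38 in recent KO samples, *Slc38a1* 30.2% ± 2.88 and 31.5% ± 2.72, and *Slc38a2* 13.1% ± 1.33 and 13.8% ± 1.84. Of the *Slc1a5* TPM, 57.3% in WT samples came from the coding *Slc1a5-201* and 23.1% from the intron-retaining *Slc1a5-202*, and neither transcript passed the test.

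*Slc1a4* (chr11:20302180-20332713, minus strand) was barely read. It had 24, 5, 8, 2, and 18 reads in WT replicates 1 to 5 and 20, 9, 13, 14, and 18 reads in recent KO replicates 1 to 5. WT replicate 4 lay below 3 reads, the floor used here. The fold of 1.36 had an interval of 0.673 to 2.74 (adjusted p = 0.826), the widest of the members.

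Single transcripts were tested as well. Of the members' transcripts, 27 had enough reads to test, and 0 of 27 passed an adjusted p of 0.05, where 0.042% of all 26185 transcripts did. At an unadjusted p of 0.05, 0 of 27 passed as well, where 6.15% of all transcripts did, and limma likewise called 0. For *Slc38a1*, *Slc38a1-203* took 71.0% of the TPM in WT and 71.1% in recent KO samples. For *Slc38a2*, *Slc38a2-201* took 87.9% and 88.5%. Shares within *Slc7a7* and *Slc1a4* swung between 0% and 100% from sample to sample on these few reads.

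The heavy chain and its light chains were then set side by side within each sample. *Slc3a2* exceeded the summed TPM of its light chains (*Slc7a5*, *Slc7a6*, *Slc7a7*, *Slc7a8*, and the non-members *Slc7a10* and *Slc7a11*) by 2.80 ± 0.334 times in WT and 2.68 ± 0.271 times in recent KO GMPs, and the ranges overlapped (2.50 to 3.24 and 2.31 to 3.00). *Slc7a6* took 65.2% ± 4.47 of the light chains in WT and 63.2% ± 4.62 in recent KO samples, *Slc7a5* 25.1% ± 3.41 and 27.98% ± 3.75, *Slc7a7* 4.81% ± 0.543 and 3.62% ± 2.04, and *Slc7a8* 3.34% ± 0.973 and 4.45% ± 1.14. No read of *Slc7a10*, a brain carrier, was found. On the scale of CPM per kilobase of the longest complete transcript, *Slc7a6* took 47.0% ± 3.59 and *Slc7a5* 41.3% ± 2.74 in WT samples. *Slc7a6* thus still led in WT samples on that scale, and its larger lead in TPM rested on its short transcript. In recent KO samples *Slc7a6* took 45.4% ± 3.79 and *Slc7a5* 43.2% ± 4.30. In recent KO replicates 1 and 2 *Slc7a5* was the higher of these light chains. On the same scale *Slc3a2* was 2.28 ± 0.129 times the summed light chains in WT and 2.08 ± 0.191 times in recent KO samples. These ranges overlapped too (2.13 to 2.44 and 1.77 to 2.24). The length used for *Slc3a2* was that of *Slc3a2-202* (2813 bases), not of its main transcript *Slc3a2-201* (1819 bases). Its level on that scale is lowered by this choice.

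*Slc7a11*, the cystine carrier that shares the heavy chain, was the smallest light chain present. Its share of light-chain TPM was 1.05% to 2.38% in WT and 0.315% to 1.00% in recent KO samples, without overlap. On the scale of the longest complete transcript the ranges did overlap (0.382% to 1.16% and 0.233% to 0.610%), and it was read by at most 42 reads per sample. Incomplete or noncoding transcripts held 85.2% of its TPM in WT samples. Its normalized CPM overlapped between the groups as well (0.930 to 3.26 in WT and 0.769 to 2.00 in recent KO samples). The gene did not pass the test (log2 fold change −0.36, adjusted p = 0.794, edgeR).

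**Figure D4:**
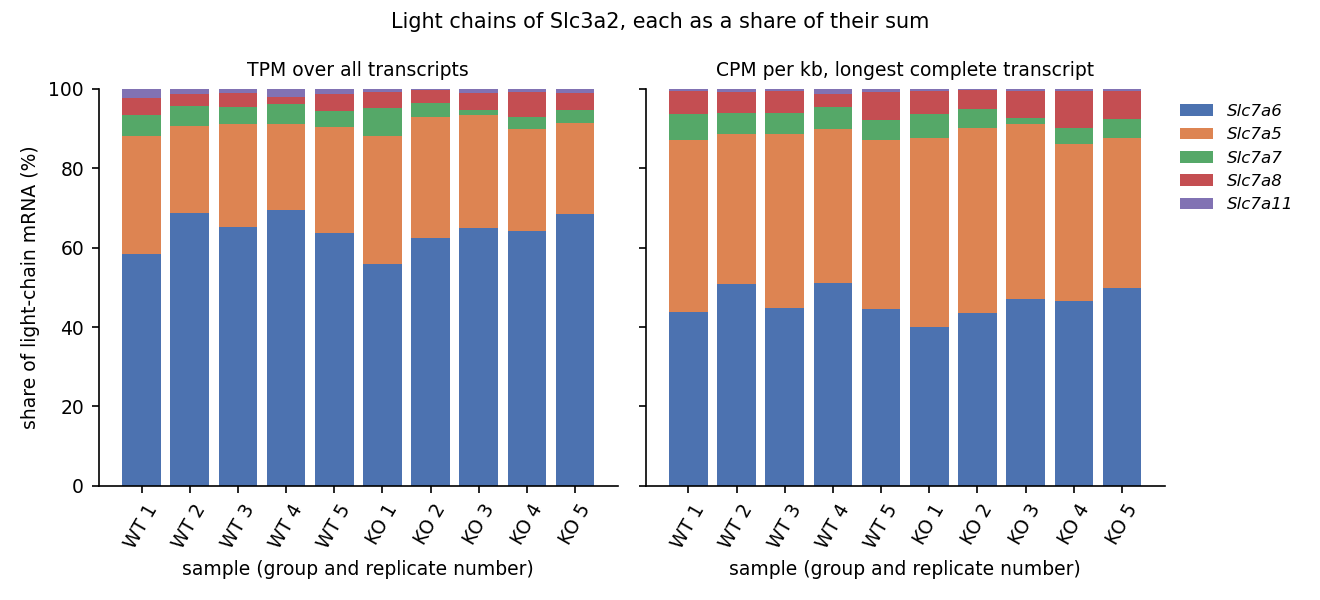
Share of each light chain in the summed light-chain mRNA of each sample, in percent, from TPM over all transcripts (left) and from CPM per kilobase of the longest complete coding transcript (right); each bar is 1 sample. *Slc7a6* and *Slc7a5* together filled most of each bar on both scales, with WT means of 65.2% and 25.1% on the left and 47.0% and 41.3% on the right.

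Across the 10 samples, each value taken as its distance from its own group's mean in log2 CPM, *Slc7a7* moved against *Slc3a2*. Pearson's r was −0.89 (exact permutation p within groups 0.00389, adjusted over 5 relations 0.0194) and Spearman's rho −0.84 (adjusted permutation p = 0.0424). *Slc7a11* moved with *Slc3a2* (r = 0.68, adjusted exact permutation p = 0.0533; rho = 0.78, adjusted 0.0424). The values were 0.59 for *Slc7a6*, 0.37 for *Slc7a8*, and 0.18 for *Slc7a5*, with adjusted exact permutation p-values of 0.191, 0.420, and 0.723. Leaving out recent KO replicates 1 and 3, the samples farthest from the median of *Slc3a2*, brought r for *Slc7a7* to −0.77 (adjusted exact permutation p = 0.122), and scaling by library size alone brought it to −0.79 (adjusted 0.0899). For *Slc7a11*, r was 0.38 with library size alone (adjusted exact permutation p = 0.377; rho adjusted 0.324) and 0.84 without these samples (adjusted 0.122; rho adjusted 0.132), so its pass by rho was lost in each. *Slc7a8* went the other way with library size alone, to r = 0.68 (adjusted exact permutation p = 0.0899). No relation thus passed the threshold outside all 10 samples and TMM scaling. Library composition is shared by all genes of a sample, and its part in the relation was not tested.

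The start regions of the members were read for 2 short motifs in RefSeq windows (GRCm38.p6), which cover 7 of the 10 members with 13 windows. *Slc1a5*, *Slc7a5*, and *Slc38a1* had no window and were not read. The E-box CACGTG, bound by MYC, MAX, and TFE3-family factors, was in 0 of 13 windows and in 7.15% of 32851 windows of all genes. Some of the 13 windows overlap and 3 members have none, so this count does not speak for all 10 members. TGATGCAA, the core of the element bound by ATF4 when amino acids run short, was found on either strand in 3 of 13 windows and in 0.895% of all windows. The 3 hold only 2 sites, 1 of *Slc1a4* and 1 of *Slc7a7*, since neighboring windows of *Slc7a7* overlap and share a match, so the shares are not to be set against each other. A match describes the letters only. The windows below are shown because these low members, and the light chain *Slc7a11*, carry the motif close to a start site. Capitals mark TGATGCAA or its reverse complement, and each is written 5′ to 3′ on the minus strand, the strand of the gene.
Slc1a4, chr11:20332699-20332728: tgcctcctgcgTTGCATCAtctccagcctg
Slc7a7, chr14:54417927-54417956: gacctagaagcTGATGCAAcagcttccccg
Slc7a11, chr3:50443652-50443681: gcTGATGCAAacctggagaatTTGCATCAt

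The match of *Slc1a4* began 4 bases before its start site, and that of *Slc7a7* 1 base before its most upstream start. The pair in *Slc7a11* began 66 and 47 bases before the start. No annotated *Slc7a7* transcript of the files began within 100 bases of that upstream start, so the level of mRNA from it was not measured. For *Slc3a2*, the most abundant member, and *Slc7a8*, the member with the smallest p, the 250 bases before the start hold none of these motifs and are given in lower case throughout, 5′ to 3′ on the minus strand.
Slc3a2, chr19:8713898-8714147: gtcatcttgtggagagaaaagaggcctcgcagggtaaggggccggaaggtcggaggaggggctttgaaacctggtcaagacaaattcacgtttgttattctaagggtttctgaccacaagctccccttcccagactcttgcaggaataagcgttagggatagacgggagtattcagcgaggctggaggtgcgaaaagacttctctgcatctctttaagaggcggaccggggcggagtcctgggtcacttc
Slc7a8, chr14:54781887-54782136: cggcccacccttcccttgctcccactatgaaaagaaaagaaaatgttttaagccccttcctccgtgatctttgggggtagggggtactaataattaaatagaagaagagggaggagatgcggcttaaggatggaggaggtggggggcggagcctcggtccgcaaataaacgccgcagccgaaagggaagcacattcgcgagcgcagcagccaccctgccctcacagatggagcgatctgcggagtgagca

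Transcripts that begin within 100 bases of this start supplied 57.3% to 62.7% of *Slc3a2* TPM in WT and 51.5% to 61.9% in recent KO samples. For *Slc7a8* they supplied nearly all of it in every sample.

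Other genes that move, sense, or use amino acids were counted beside these 10. Of 24 further carriers of the plasma membrane, 7 had enough reads to test and 6 had no read in any sample. None of the 7 passed an adjusted p of 0.05 (0.331% of all genes), and 2 had an unadjusted p under 0.05 (10.2% of all genes). *Slc36a2*, a proton-coupled carrier of glycine and proline, was the furthest apart. It was at 3.62, 4.66, 4.10, 6.68, and 5.09 CPM in WT replicates 1 to 5 and at 2.39, 3.36, 1.03, 1.64, and 2.58 CPM in recent KO replicates 1 to 5, all of the latter below all of the former. Its log2 fold change was −1.14 (SE 0.28), with an adjusted p of 0.143 in edgeR and an exact permutation p of 0.00794, the smallest that 5 against 5 samples allow. DESeq2 gave an adjusted p of 0.00997, and edgeR without the filter on low counts 0.00736. Without recent KO replicates 3 to 5 its log2 fold change was −0.75 (adjusted p = 0.457).

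*Slc6a6*, the taurine carrier and the highest of these 24 in TPM, was at 33.8 ± 2.83 CPM in WT samples and 40.9 ± 5.88 CPM in recent KO samples (log2 fold change 0.27, adjusted p = 0.353). *Slc6a15*, a carrier of branched-chain amino acids and proline, had a log2 fold change of 0.70 at about 1 CPM (adjusted p = 0.504). The leucine facilitators *Slc43a1* and *Slc43a2*, which need no sodium, had log2 fold changes of 0.16 and 0.13.

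Carriers of the lysosomal membrane, which release amino acids from degraded protein, numbered 10, of which 9 were tested and 0 were called (0.331% of all genes) or had an unadjusted p under 0.05 (10.2% of all genes). Their median log2 fold change was −0.10. The smallest p-values belonged to *Ctns*, the cystine exporter (−0.31), *Slc29a3*, whose known cargo is nucleosides (−0.26), and *Slc36a4* (−0.31). Of the most abundant, the histidine and peptide carrier *Slc15a4* had −0.10, the arginine-sensing *Slc38a9* 0.14, and the cationic carrier *Slc66a1* 0.24.

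The list of amino acid sensing held 35 genes, nearly all of the mTORC1 pathway, with *Eif2ak4* (GCN2) and *Atf4* of the separate response to amino acid shortage. Of these, 34 were tested and edgeR called 0 (0.331% of all genes). An unadjusted p under 0.05, found for 10.2% of all genes, was reached by 2 of the 34: *Wdr24*, a part of GATOR2, and *Depdc5*, a part of GATOR1. *Wdr24* was at 21.4 ± 2.25 CPM in WT samples and 18.0 ± 1.57 CPM in recent KO samples (log2 fold change −0.25, adjusted p = 0.364), and *Depdc5* at 4.86 ± 0.699 and 3.78 ± 0.517 CPM (−0.37, adjusted p = 0.450). The abundant Ragulator genes *Lamtor2*, *Lamtor5*, and *Lamtor4* had −0.09, 0.08, and −0.08, and the GTPase *Rheb* 0.10.

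The 20 cytosolic aminoacyl-tRNA synthetases, which charge tRNAs with the imported amino acids, spanned only −0.12 to 0.11 in log2 fold change, with a median of −0.01. None was called (0.331% of all genes), and none had an unadjusted p under 0.05 (10.2% of all genes), though 2 did when scaled by library size alone. *Aars1* and *Tars1* were at the low end with −0.12 each, *Farsa* had 0.11, and the abundant *Nars1* had −0.04. The lysosomal, sensing, and synthetase lists had 0 calls in DESeq2 and limma too.

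**Figure D5:**
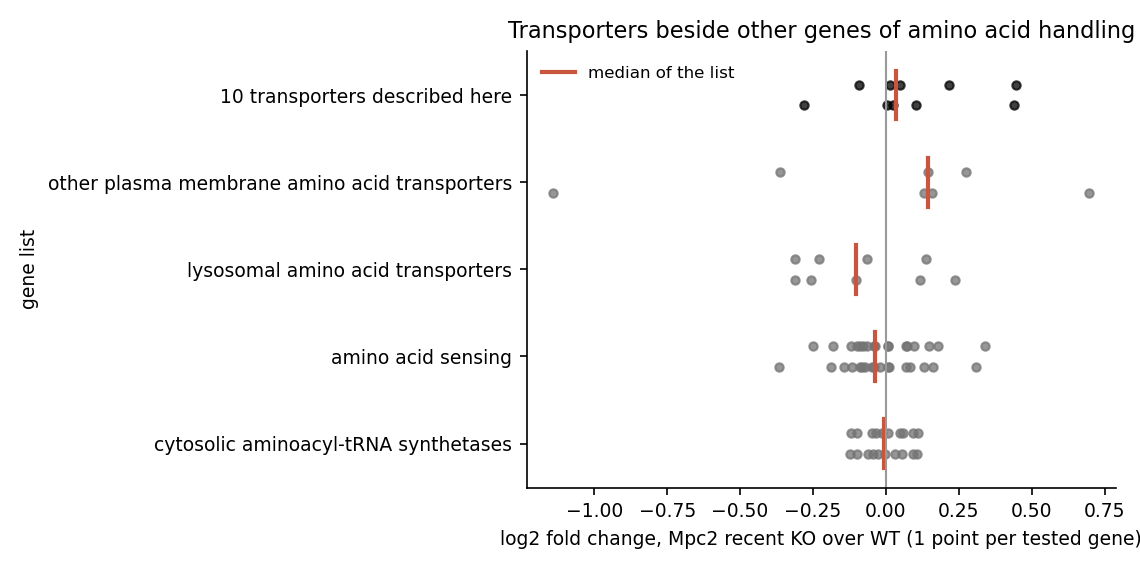
Log2 fold change of every tested gene in the 10 carriers and in the 4 other lists of amino acid genes, 1 point per gene, with the list median in red. *Slc36a2* at −1.14 and *Slc6a15* at 0.70 lie outside the span of the 10 carriers (−0.28 to 0.45), and the tRNA synthetases lie between −0.12 and 0.11.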

How the data were processed

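The authors sorted CD45.2+ GMPs, amplified poly(A) cDNA with the SMARTseq V4 kit, which does not mark strand, sequenced paired ends on a NovaSeq, and ran Salmon (1.5.1 per the submitters' processing notes) on Gencode's M27 transcripts. Per sample, the authors deposited Salmon's expected counts per transcript, with no normalization, beside TPM, which Salmon sets per transcript length and brings to 1 fixed total. The authors' own DESeq2 table (mean normalized count, log2 fold change, error, statistic, p, and adjusted p per gene) was not used.

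Transcripts were matched without version numbers to GENCODE M21 (GRCm38), and 97.4% of 140789 matched; the 3628 others, holding 0.348% to 0.390% of reads, were left out. All positions are from M21 or RefSeq on GRCm38, and no position was converted. Expected counts were summed per gene, rounded, and tested with edgeR 4.0.16 (TMM, filterByExpr at a minimum count of 10, quasi-likelihood test, condition as the only term), with Benjamini-Hochberg adjustment over all 12381 genes. Levels are TMM-normalized CPM for 1 gene across samples and TPM between genes. Exact permutation tests were two-sided, over 252 splits. BLAST 2.17.0 looked for near-identical copies of the members. Scripts were tested on simulated data.

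The totals of 14033776 to 19745405 reads put 3 counts, used as a floor, at 0.152 to 0.214 CPM, for counting error only, since amplified cDNA has no molecular identifiers. Replicates of a group differed by more than sampling noise, and each was counted once. Alternatives were RLE and library size scaling, no filter, only genes with mean counts from 50 up, an offset for transcript length, DESeq2 1.42.0, limma 3.58.1 on log2(TPM + 1) or log2(TPM + 0.1), the replicate number as a block, and leaving out each sample. The members and gene lists were chosen with earlier results of these data known. Named beside the 10 members are *Mpc2* and, from each other list, the genes passing 0.05, the 3 with the smallest p, and the 3 highest in WT TPM; *Slc7a10*, *Slc7a11*, and *Oxa1l* were added for the heavy chain and for shared exons. The single result of 1 gene that this rule names is not reported here.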

Additional observations from a re-analysis of the deposited data

Results flagged for a closer look

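*Slc7a5* in WT replicate 3, at 47.9 CPM, lay apart from the other 4 WT samples, which ran from 39.4 to 41.8 CPM, by more than Dixon's 95% critical value (0.71 for 5 samples) allows. This was 1 of 22 groups examined, where chance alone gives about 1.1. Without this sample the log2 fold change of *Slc7a5* stayed above 0.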

How the results depend on the processing

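All 20 alternatives called 0 members. Over 197 refits of single members the sign held in 180, and the lowest adjusted p was 0.250 (*Slc7a8* without recent KO replicate 2). *Slc1a4* had no value at a mean count of at least 50 or in limma, where it was filtered out. With the length offset, *Slc3a2* was at −0.0062 and *Slc7a1* at −0.039. Leaving out 1 sample in turn gave −0.031 to 0.039 for *Slc3a2*, −0.0054 to 0.078 for *Slc7a1*, −0.042 to 0.078 for *Slc38a1*, −0.39 to −0.07 for *Slc7a7*, and −0.054 to 0.051 for *Slc38a2*. Without recent KO replicates 3 to 5, chosen after seeing the data, *Slc3a2* was at −0.091, *Slc7a6* at −0.050, *Slc7a7* at 0.069, *Slc38a1* at −0.12, and *Slc38a2* at −0.18. The cause was not tested.

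Of the correlations, that of *Slc3a2* with *Slc7a7* lost its call with library size alone (−0.79) and without the 2 farthest samples (−0.77), where that with *Slc7a5* was −0.29. Of the further carriers, 1 (*Slc36a2*) was called without the filter, by DESeq2, and without recent KO replicate 2. In CPM per kilobase, 1 pair of members changed order. *Mpc2* missed 0.05 with the length offset (−1.40), in limma (−1.35 and −1.38), without recent KO replicates 3 to 5 (−1.99), and with the block (−1.46); leaving out 1 sample gave −1.60 to −1.31, missing 0.05 without recent KO replicate 1 (adjusted p = 0.05002).

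Same-numbered samples did not deviate together (r from −0.18 to 0.06), so the numbers were not taken as pairs; the replicate block called 20 genes in all. Against 41 genes called, there were 206 without the filter, 156 with DESeq2, 25 and 24 with limma, 16 without recent KO replicates 3 to 5, and 25 to 91 leaving out 1 sample, the most without recent KO replicate 2. Library size alone called 26 higher and 20 lower genes, against 15 and 26, and moved the median of all genes to 0.07. *Slc1a4* and *Slc7a7* had the fewest reads of the members.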
